A study of Mus musculus with 45 samples.

Results

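Kidney gene expression was compared between mice fed a high-cholesterol diet (HCD) and mice fed the standard diet (Control). All 22080 genes of the kidney arrays were compared, on 3 HCD and 3 Control arrays out of 45 arrays in the series, which also covers liver and brain and HCD with simvastatin or either of the *Ganoderma lucidum* extracts Gl-1 and Gl-2. Both groups were male C57BL/6 mice aged 7 weeks at the start, with no drug or extract. Control mice received AIN-93 and HCD mice received AIN-93 with 0.5% cholesterol until they were killed on day 43, after 8 h with neither food nor water. Each group held 8 mice. By the methods, RNA of 4 mice formed pool A, RNA of the other 4 formed pool B, and pool C mixed both, so that only 2 pools per group share no mice and the p-values measure the spread between pooled samples.

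The kidney reabsorbs filtered solutes in its tubules, and the proximal tubule covers much of its energy demand by oxidizing fatty acids, a program that the nuclear receptor PPAR alpha switches on during fasting. The same cells activate and inactivate vitamin D. In male mice many transporters and steroid enzymes of the proximal tubule depend on androgens. Cholesterol itself is sensed through SREBP and LXR, which set its synthesis, uptake and export.

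Values are the authors' log2 expression values, so that a difference of 1 is a doubling. A gene was called differentially expressed when its log2 fold change lay over 0.7 in either direction and its adjusted p was at most 0.05 in limma with Benjamini-Hochberg adjustment over all genes. The text gives first the genes outside repeated gene families, and then, apart from them, the dim probe sets whose symbols denote small RNAs, olfactory and vomeronasal receptors, gene models and other multicopy genes. Array medians lay between 6.83 and 6.87, and 2 arrays of a group correlated at 0.9957 to 0.9969 across genes against 0.9952 to 0.9968 between the groups. Of 53 markers of nephron segments and glomerulus, 46 were higher in kidney than in both liver and brain, with a median level of 9.66 in kidney, 6.20 in liver and 6.10 in brain, so the arrays match their kidney label.

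HCD moved few kidney genes. 9 genes were called, which is 0.0408% of those tested, 5 higher and 4 lower in HCD, and 988 had an unadjusted p under 0.05. Among those outside the multicopy families, the vitamin D-degrading enzyme gene *Cyp24a1* and the lipase inhibitor gene *Angptl4* fell together with *Polr3e*, while the steroid reductase gene *Srd5a2* and the lipase family gene *Lipo1* rose. Without a fold change threshold 21 genes were higher (0.0951% of all) and 8 lower (0.0362%). In all 29 of them the HCD arrays lay entirely above or below the Control arrays, as they did for 5.58% (above) and 7.67% (below) of all genes. The bulk RNA cannot tell fewer cells of a type from less RNA per cell.

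**Figure D1:**
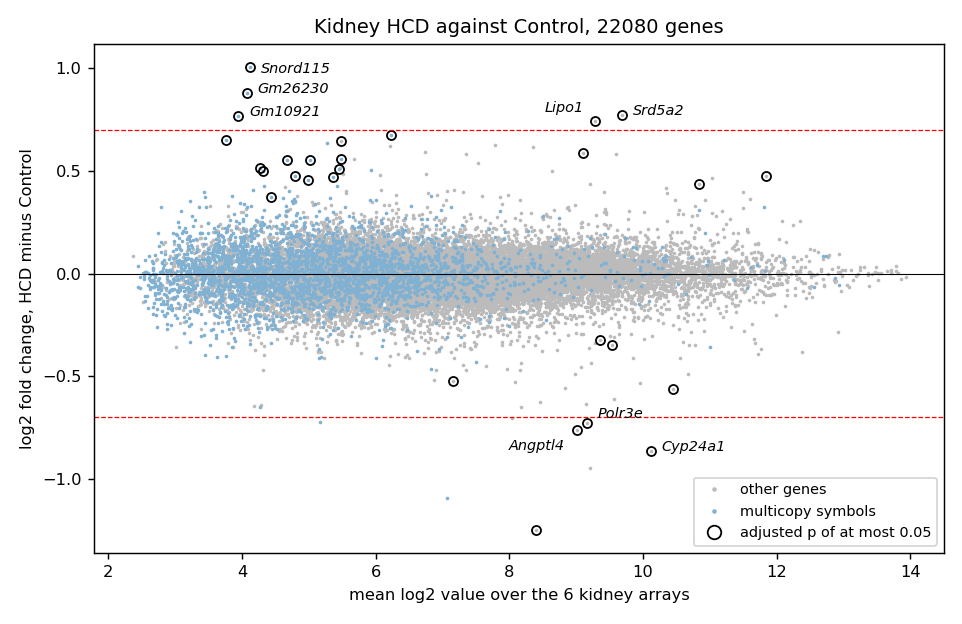
Mean log2 value over the 6 kidney arrays (x axis) against the log2 fold change of HCD minus Control (y axis), 1 point per gene. Circles mark an adjusted p of at most 0.05 and dashed lines the threshold of 0.7. The named genes higher in HCD lie in a dim group that includes *Snord115* at 1.01 and a bright group with *Srd5a2* at 0.77, and the named genes that fell are all bright.

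Of the 8 called genes named here, 3 had a promoter window in RefSeq (GRCm38.p6, 250 bases before to 50 after the start), and these are printed because they are the start regions of genes that passed the test. Both strands were searched for AGAACA, part of the androgen and glucocorticoid receptor element, for AGGTCA, the core that many other nuclear receptors bind, and for the consensus of the B box, the internal promoter of tRNA genes, and matches are in capitals.
Srd5a2, chr17:74047811-74048110, minus strand: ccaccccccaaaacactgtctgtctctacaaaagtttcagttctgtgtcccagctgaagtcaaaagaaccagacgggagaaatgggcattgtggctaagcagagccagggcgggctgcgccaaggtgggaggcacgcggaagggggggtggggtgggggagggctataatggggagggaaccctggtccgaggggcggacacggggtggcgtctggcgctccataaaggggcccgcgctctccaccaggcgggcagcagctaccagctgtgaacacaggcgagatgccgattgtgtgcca
Lipo1, chr19:33787403-33787702, minus strand: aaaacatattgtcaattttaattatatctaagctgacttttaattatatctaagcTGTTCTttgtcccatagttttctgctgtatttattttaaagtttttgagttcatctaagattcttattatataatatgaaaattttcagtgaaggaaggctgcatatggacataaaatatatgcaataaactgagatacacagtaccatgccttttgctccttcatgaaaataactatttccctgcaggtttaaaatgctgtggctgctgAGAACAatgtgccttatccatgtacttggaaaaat
Polr3e, chr7:120917528-120917827, plus strand: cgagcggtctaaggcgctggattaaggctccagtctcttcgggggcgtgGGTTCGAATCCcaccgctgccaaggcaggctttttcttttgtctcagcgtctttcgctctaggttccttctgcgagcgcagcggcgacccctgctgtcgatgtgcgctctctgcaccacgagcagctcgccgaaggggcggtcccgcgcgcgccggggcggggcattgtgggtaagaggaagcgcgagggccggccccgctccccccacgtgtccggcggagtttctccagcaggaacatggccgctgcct
The *Srd5a2* window held none of the 3 motifs. The *Lipo1* window held 2 matches to AGAACA, a motif found in 19% of the 32851 windows. The *Polr3e* window held the B box, which 40 windows hold (0.122%), upstream of a gene that itself encodes a subunit of RNA polymerase III, the enzyme that transcribes tRNA genes. AGGTCA was found in 16.3% of all windows. *Cyp24a1*, *Angptl4*, *Snord115*, *Gm26230* and *Gm10921* had no window in the table.

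*Cyp24a1* encodes the mitochondrial hydroxylase that starts the breakdown of active vitamin D. Its log2 values were 9.57, 9.80 and 9.68 in HCD pools A, B and C and 10.55, 10.63 and 10.48 in Control. The groups did not overlap, and every HCD array lay well under the lowest Control array. The mean fell from 10.55 ± 0.08 to 9.69 ± 0.11 (SD, n = 3), a 1.82-fold decrease (log2 fold change -0.87, standard error 0.10, 95% interval -1.08 to -0.65, limma adjusted p 1.08e-05). Leaving out any 1 array gave values from -0.92 to -0.81.

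Among 30 genes of vitamin D, calcium and phosphate handling, *Cyp24a1* alone passed the adjusted test. None of them had an unadjusted p under 0.05 on the higher side and 4 had one on the lower side, against 1.89% and 2.59% of all genes. *Cyp27b1*, which makes active vitamin D, read 7.15, 7.15 and 6.96 in HCD and 7.44, 7.73 and 7.43 in Control, a difference of -0.45 with an adjusted p of 0.44 in limma. Its arrays were apart, but the difference did not pass the test. *Cldn19*, a tight junction gene of the thick ascending limb, had a log2 fold change of -0.21 (limma adjusted p 1.00). The list as a whole had a median log2 fold change of -0.02 with 21 of 30 members lower, beside a median of -0.01 over all genes.

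PPAR alpha targets, mostly enzymes of fatty acid oxidation, were the list with the most members on the lower side. The lists and their members were chosen with earlier results of these data known, so the counts are descriptive and no independent support. Of 45 members 39 had a lower mean in HCD, the median log2 fold change was -0.13, 12 had an unadjusted p under 0.05 on the lower side and 1 on the higher side, and in 29 all HCD arrays lay below all Control arrays. Over all genes, 11765 of 22080 had a lower mean, 2.59% had an unadjusted p under 0.05 on the lower side and 1.89% on the higher side, and in 7.67% the HCD arrays lay entirely below. 4 of the list passed the adjusted test, all lower, among them *Angptl4*, *Acaa2* and *Ucp2*. Leaving out any 1 array gave list medians from -0.15 to -0.13.

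*Angptl4* encodes a secreted inhibitor of lipoprotein lipase. It read 8.59, 8.57 and 8.73 in HCD and 9.40, 9.49 and 9.29 in Control, with no overlap. The log2 fold change was -0.76 (standard error 0.13, 95% interval -1.03 to -0.49, limma adjusted p 0.00341), and leaving out any 1 array gave values from -0.82 to -0.71, but with a fit on the 15 kidney arrays alone its adjusted p was 0.0674.

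*Acaa2*, the thiolase of the last step of mitochondrial beta-oxidation, read 9.45, 9.35 and 9.31 in HCD and 9.71, 9.75 and 9.69 in Control. The change was small and even, a log2 fold change of -0.35 with an adjusted p of 0.0158 in limma. *Ucp2*, a carrier of the inner mitochondrial membrane, read 10.07, 10.27 and 10.14 in HCD and 10.79, 10.80 and 10.57 in Control. It fell by 0.56 on the log2 scale (limma adjusted p 0.0419). Both genes fell short of the fold change threshold. Leaving out arrays weakened them: *Acaa2* had an adjusted p over 0.05 without any 1 array other than HCD A, up to 0.129, and *Ucp2* without any 1 array other than Control C, up to 0.266.

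Other PPAR alpha targets pointed the same way without passing the test. *Cyp4a14*, a fatty acid hydroxylase, had a log2 fold change of -0.95 with a standard error of 0.33 (limma adjusted p 0.674). That standard error pools all 15 groups, and the SDs were 0.06 in kidney HCD, 0.23 in kidney Control and 0.95 in liver HCD. Its limma adjusted p was 0.0165 when the 15 kidney arrays were fitted alone. *Pdk4*, the kinase that holds back glucose oxidation, had a value of -0.65 (limma adjusted p 0.158) and the peroxisomal thiolase gene *Acaa1b* one of -0.44 (limma adjusted p 0.134); both were chosen after their values were seen. *Cd36*, a fatty acid transporter, was the member with an unadjusted p under 0.05 on the higher side, at 0.22.

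The acyltransferase genes *Acnat1* and *Acnat2*, also chosen after their values were seen, had log2 fold changes of -0.63 and -0.61 with limma adjusted p of 0.0707 and 0.0641. The largest fall among uncalled genes named here was that of the gene model *Gm15441*, with 6.51, 6.62 and 6.41 in HCD and 7.56, 7.82 and 7.45 in Control. Its log2 fold change was -1.09, but its standard error of 0.28 left an adjusted p of 0.122 in limma. It passed at 0.0162 in a fit on the compared arrays alone and at 0.0451 with the pool letter as a block. It was likewise chosen after its values were seen.

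**Figure D2:**
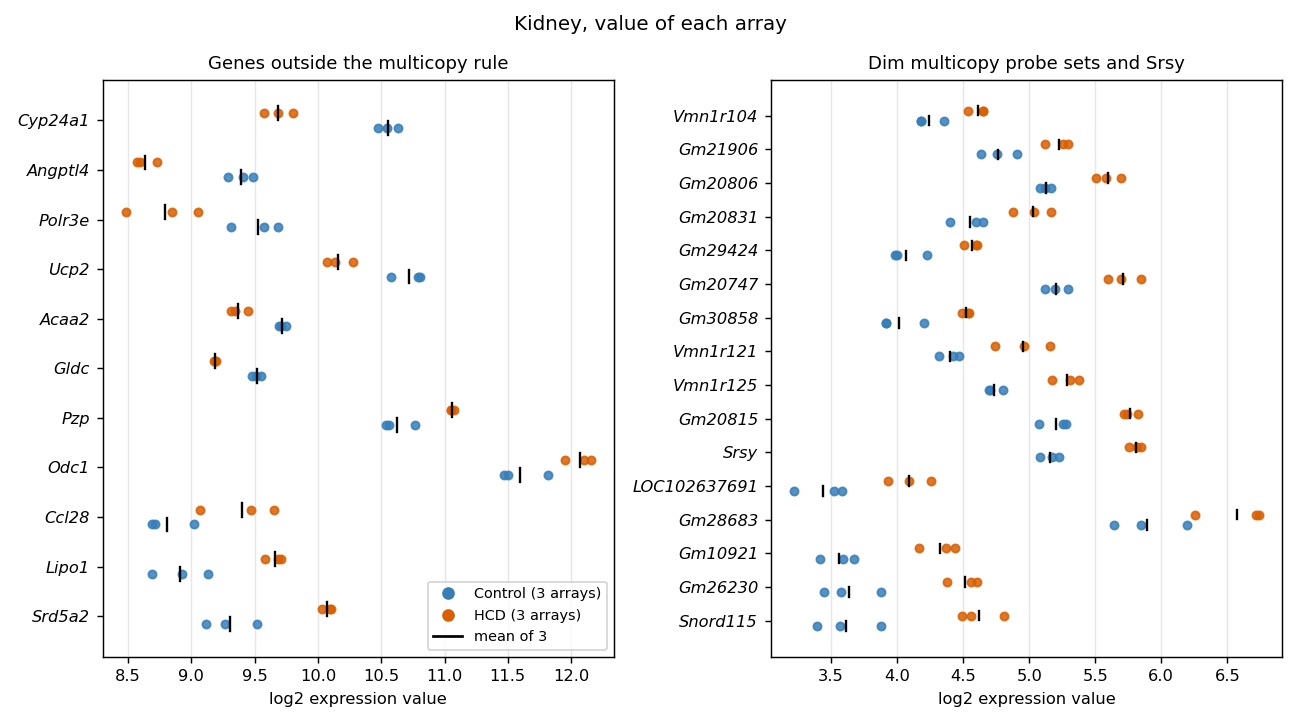
Log2 value of each kidney array (points) and the mean of 3 (bars) for Control and HCD, for genes at an adjusted p of at most 0.05, ordered by fold change. Genes outside the multicopy families are on the left and dim multicopy probe sets with *Srsy* on the right. In each gene shown, all 3 HCD arrays lie on the same side of all 3 Control arrays.

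Genes that act on lipoprotein and stored triglycerides moved in both directions. Among 33 measured lipases and lipase regulators, 1 passed the adjusted test on the higher side, *Lipo1*, and 2 on the lower side, *Angptl4* among them. The list had a median of -0.03.

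*Lipo1*, a gene of the lysosomal acid lipase family, read 9.71, 9.68 and 9.58 in HCD and 8.92, 8.69 and 9.13 in Control. It rose by 0.74 (standard error 0.15, limma adjusted p 0.0235). RefSeq also lists *Lipo1* as a synonym of the neighbouring family member *Lipo3*, and a probe set of this family may take signal from more than 1 member. The call did not hold without HCD A (0.72), HCD B (0.73), HCD C (0.78), Control A (0.75) or Control B (0.63), in a fit on the compared arrays alone (adjusted p 0.0635) or with pools A and B only (0.0501). *Mgll*, the monoacylglycerol lipase gene, was just short of the test at -0.35 (limma adjusted p 0.0707; chosen after its values were seen). It passed with the pool letter as a block (0.0288), with dim genes left out (0.0441) and with trend and robust moderation (0.0392).

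*Srd5a2* encodes the reductase that turns testosterone into dihydrotestosterone. It read 10.03, 10.09 and 10.10 in HCD and 9.27, 9.12 and 9.52 in Control. The HCD arrays lay close together above all Control arrays, which spread more, with means of 10.07 ± 0.04 and 9.30 ± 0.20 (SD, n = 3). The log2 fold change was 0.77 (standard error 0.11, 95% interval 0.55 to 0.99, limma adjusted p 0.000135), and without Control B it was 0.68, under the fold change threshold.

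Of 32 measured steroid reducing and dehydrogenase genes, *Srd5a2* alone passed the adjusted test, 5 had an unadjusted p under 0.05 on the higher side and 1 on the lower side, against 1.89% and 2.59% of all genes, and the median was 0.01. *Hsd11b1*, which regenerates active glucocorticoid, read 9.80, 9.90 and 9.96 in HCD and 9.28, 9.21 and 9.43 in Control, a log2 fold change of 0.58 with an adjusted p of 0.0801 in limma, and 0.0154 with a fit on the 15 kidney arrays alone. *Hsd17b11*, a dehydrogenase that is also in the list of androgen-responsive genes, had a value of 0.29 (limma adjusted p 0.592).

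Androgen-responsive genes of the male kidney were the list with the highest median. This list too was chosen with earlier results of these data known, so its counts are descriptive. Of 24 measured members 20 had a higher mean in HCD, the median log2 fold change was 0.14, and 9 had an unadjusted p under 0.05 on the higher side and 0 on the lower side. In 12 the HCD arrays lay entirely above the Control arrays and in 2 entirely below. The lowest member was at -0.38. Over all genes, 10315 of 22080 had a higher mean, and 1.89% had an unadjusted p under 0.05 on the higher side and 2.59% on the lower side. The HCD arrays lay entirely above in 5.58% of all genes and entirely below in 7.67%. *Odc1* alone passed the adjusted test. The median of the list was 0.13 to 0.20 with each array left out.

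*Odc1*, the rate-limiting enzyme of polyamine synthesis, read 12.16, 12.10 and 11.95 in HCD and 11.50, 11.47 and 11.82 in Control. It rose by 0.47 (standard error 0.10, limma adjusted p 0.0245), with an adjusted p over 0.05 without Control A, Control B, HCD A or HCD B, and of 0.0929 with a fit on the 15 kidney arrays alone. *Slco1a1*, an organic anion transporter of the proximal tubule, read 11.29, 11.26 and 11.26 in HCD and 10.70, 10.63 and 11.06 in Control, and its log2 fold change of 0.47 had an adjusted p of 0.0586 in limma. *Gusb*, the beta-glucuronidase gene, had a value of 0.30 (limma adjusted p 0.0657), *Cyp2j13* one of 0.29 (0.594) and *Cyp4a12a* one of 0.40 (0.662).

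In these genes Control pool C stood nearer to HCD than Control pools A and B. Although pool C mixes A and B, its value lay above both in 20 of the 24 members in Control, against 32.1% of all genes, and in 8 of the 24 in HCD. Over all genes pool C lay outside the range of A and B in 72.2% of genes in Control and 64.5% in HCD. Without Control C the median of the list was 0.20 and *Slco1a1* passed the test (0.60, limma adjusted p 0.0095).

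*Polr3e* read 8.85, 8.48 and 9.05 in HCD and 9.58, 9.69 and 9.31 in Control. It fell by 0.73 (standard error 0.15, limma adjusted p 0.0264), and both groups spread more than those of the other genes that fell, with SDs of 0.29 and 0.19. The call did not hold without HCD A (-0.76), HCD B (-0.57), Control A (-0.70) or Control B (-0.65), nor with a fit on the 15 kidney arrays alone (adjusted p 0.118), on the compared arrays alone (0.19) or without the multicopy symbols (0.0512).

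3 further genes passed the adjusted test under the fold change threshold. *Ccl28*, a chemokine of epithelia, rose by 0.59 (9.47, 9.07 and 9.65 in HCD against 8.71, 8.69 and 9.02 in Control, limma adjusted p 0.0245). *Pzp*, a protease inhibitor of the alpha-2-macroglobulin family, rose by 0.44, with 11.05, 11.05 and 11.08 against 10.54, 10.56 and 10.77 (limma adjusted p 0.0492). *Gldc*, the decarboxylase of the glycine cleavage system, fell by 0.33, with 9.19, 9.19 and 9.18 against 9.51, 9.48 and 9.55 (limma adjusted p 0.0464). *Ccl28* had an adjusted p over 0.05 without HCD A, HCD C, Control A or Control B, *Pzp* without any 1 array other than Control C, and *Gldc* without any of the 6. In a fit on the compared arrays alone, none of these 3 genes nor *Acaa2*, *Ucp2* and *Odc1* passed the adjusted test.

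At the fold change threshold, the 3 genes named here just inside were *Angptl4* (-0.76), *Lipo1* (0.74) and *Polr3e* (-0.73), and the 3 just outside were the dim probe sets *Gm28683* (0.68), *LOC102637691* (0.65) and *Srsy* (0.65). At the edge of the adjusted p, *Klk1b26*, a kallikrein gene, had a value of 0.63 (limma adjusted p 0.0529), *Psca* one of -0.70 (limma adjusted p 0.0625) and *Hrg*, the histidine-rich glycoprotein gene, one of 0.62 (limma adjusted p 0.0765). These last 3 were chosen after their values were seen, and each passed under at least 1 alternative.

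The cholesterol genes themselves moved little in kidney. No gene passed the adjusted test among 24 of cholesterol synthesis, 23 of sterol sensing and LDL uptake and 22 of LXR and sterol export. The medians of these lists were 0.00, -0.00 and 0.03. At an unadjusted p under 0.05 there were 2 synthesis genes, *Lbr* (0.21) and *Acat2* (0.18), both on the higher side, and 1 LXR list member, *Abcb11* (-0.23), on the lower side. *Sqle* had a value of 0.21, *Srebf1* one of 0.19 and the sterol exporter gene *Abcg1* one of 0.16, each with a limma adjusted p of 1.00.

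No member of the other lists passed the adjusted test, and their counts below stand beside 1.89% of all genes with an unadjusted p under 0.05 on the higher side and 2.59% on the lower side. Of 24 kidney injury genes 18 had a lower mean in HCD, as had 11765 of all 22080 genes, with a median of -0.16 and 5 members with an unadjusted p under 0.05, all on the lower side. The fibrinogen chain genes *Fga* and *Fgg* were at -0.38 and -0.40 (limma adjusted p 0.109 and 0.126), and *Clu* at -0.20 (0.645). Among 29 inflammation and interferon genes the median was -0.02, with *C3* at -0.35 (limma adjusted p 0.115), *Tnfaip3* at -0.29 and *Nfkbia* at -0.29. The median of 24 matrix and fibrosis genes was -0.04, with *Lox* at -0.36 and *Acta2* at -0.22. The medians of the matrix, inflammation, cholesterol synthesis, sterol sensing, LXR, steroid enzyme, organic ion, NRF2 and immediate early lists changed sign over the arrays left out.

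For 17 genes of gluconeogenesis and glucose transport the median was -0.09, with *Pck1*, the gatekeeper of gluconeogenesis, at -0.38 (limma adjusted p 0.282) and the sugar transporter gene *Slc5a10* at -0.32 (0.239). Fatty acid synthesis, elongation and desaturation (26 genes) had a median of -0.01, with *Acss1* at -0.35 and *Elovl2* at -0.28 on the lower side and *Dgat1* at 0.16 on the higher side. Lipid droplet and uptake genes (22) had a median of -0.06, with *Slc27a1* at -0.24 and *Fabp1* at -0.23. The 23 arachidonate enzymes of the Cyp4 and Cyp2 families had a median of -0.08 and 3 members with an unadjusted p under 0.05 on the higher side, *Cyp4a12a* and *Cyp2j13* among them, against 1 on the lower side, *Cyp4a14*.

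Organic ion transporters (30) split evenly, with 4 members on each side at an unadjusted p under 0.05 and a median of -0.00. *Slc22a22* was at 0.31 and the efflux pump gene *Abcc4* at -0.25. Renin, aldosterone and salt transport genes (24) had a median of -0.03, with *Nr3c1*, the glucocorticoid receptor, at 0.17, *Sgk1* at -0.31 and the sodium channel gene *Scnn1a* at -0.17. The 20 measured NRF2 antioxidant genes had a median of 0.01, with *Cbr3* at 0.30 and *Hmox1* at -0.15. The 35 immediate early and heat shock genes had a median of -0.01, with *Gadd45g* at -0.53, *Dusp1* at -0.41 and *Hspb1* at -0.28. Among 20 clock genes the activator *Arntl* was at -0.32 and the repressors *Nr1d2* and *Per3* at 0.24 and 0.20, with a median of 0.03.

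**Figure D3:**
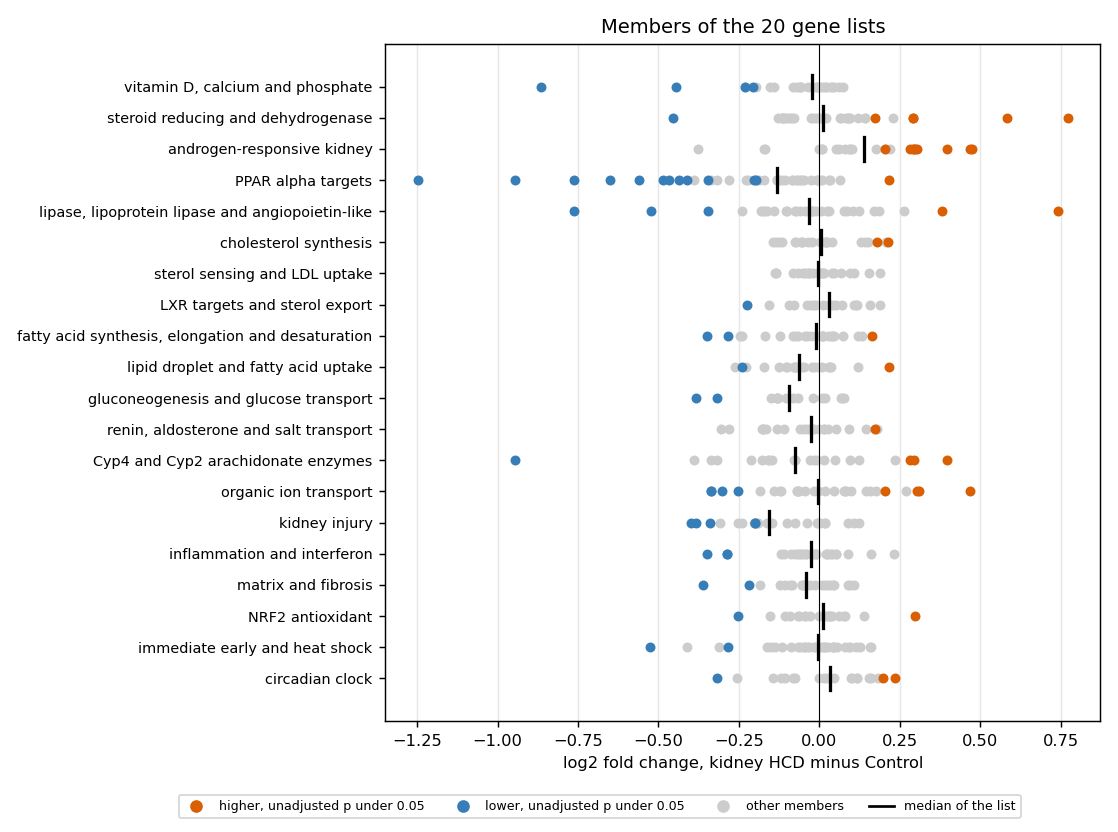
Log2 fold change of HCD minus Control (x axis) for each measured member (points) of the 20 gene lists (rows), coloured where the unadjusted p was under 0.05, with the median of each list as a bar. The PPAR alpha targets extend to the left, with a median of -0.13, and the androgen-responsive genes to the right, with a median of 0.14.

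No cell type marker list had a median log2 fold change over 0.11 in size. For the 16 proximal tubule markers the median log2 fold change was -0.05, and the array means were 11.95 to 12.02 in HCD and 12.04 to 12.07 in Control. Thick ascending limb, intercalated cell and endothelial markers had medians of -0.02, 0.00 and 0.00. The array means of 6 marker lists, all lower in HCD, did not overlap between the diets. Over all genes, 11765 of 22080 had a lower mean, and in 7.67% the HCD arrays lay entirely below. A mean over several members spreads less than a single gene, so these shares of single genes are no like measure for array means. The gaps between array means were not tested. All 7 distal convoluted and connecting tubule markers were lower in HCD, with array means of 10.02 to 10.11 against 10.13 to 10.17 in Control. The 9 podocyte and glomerulus markers had array means of 7.74 to 7.75 in HCD and 7.82 to 7.84 in Control, and the 8 urothelium markers 6.99 to 7.03 and 7.04 to 7.14. The 7 inner medulla and thin limb markers were lower in 6 cases, with a median of -0.11 and array means of 8.40 to 8.49 in HCD against 8.59 to 8.62 in Control. Of these 7, 3 had an unadjusted p under 0.05 on the lower side and 0 on the higher side. Over all genes these shares were 2.59% and 1.89%. In 3 of the 7 the HCD arrays lay entirely below the Control arrays, and in 0 entirely above. *Slc14a2*, the urea transporter of the inner medulla (chosen after its values were seen), read 8.10, 8.10 and 8.23 in HCD and 8.81, 8.86 and 8.63 in Control, a log2 fold change of -0.63 with an adjusted p of 0.253 in limma. Adipose markers (10) had array means of 6.66 to 6.69 in HCD and 6.73 to 6.83 in Control, adrenal markers (12) of 5.47 to 5.57 and 5.45 to 5.57, and liver markers (10) of 7.30 to 7.41 and 7.32 to 7.42. The part of tissue composition in the gene results above was not tested.

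Of the 29 genes at an adjusted p of at most 0.05, 15 had multicopy symbols and 14 did not. The 15 were all dim and all higher in HCD. *Srsy*, a multicopy Y gene that the symbol rule does not catch, was set apart after its values were seen and made 16. Dim here means a mean under 6.85, the median gene of the 6 arrays. The table holds 2630 dim multicopy symbols with a median log2 fold change of 0.00, of which these 15 passed. Among 19022 other symbols 6 passed on the higher side and 8 on the lower side. Among all 22080 genes 21 passed on the higher side (0.0951%) and 8 on the lower side (0.0362%).

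*Snord115*, a small nucleolar RNA known from brain and encoded in many copies in an imprinted region, read 4.56, 4.81 and 4.49 in HCD and 3.88, 3.57 and 3.39 in Control. Its log2 fold change was 1.01 (standard error 0.15, limma adjusted p 0.000163). *Gm26230*, a small RNA model on chromosome 7, read 4.56, 4.60 and 4.38 in HCD and 3.88, 3.57 and 3.45 in Control, with a log2 fold change of 0.88 (limma adjusted p 0.000591). Both probe sets differed from each other by at most 0.21 on any of the 6 arrays, so they cannot be taken as separate evidence. *Gm10921* read 4.44, 4.37 and 4.17 in HCD and 3.59, 3.67 and 3.42 in Control, a log2 fold change of 0.77 (limma adjusted p 0.000135), and 0.70, short of the threshold, without Control C.

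Of 12 multicopy probe sets that RefSeq places on chromosome Y, all 12 were higher in HCD with a median of 0.47, and *Srsy*, *Gm20747*, *Gm20815*, *Gm20831* and *Gm20806* passed the adjusted test. Over all genes, 10315 of 22080 had a higher mean and 0.0951% passed on the higher side. *Srsy* was put in this set after its values were seen. The mean level of the 12 was 5.14, 5.16 and 5.25 in HCD pools A, B and C and 4.82, 4.79 and 4.64 in Control. It was 4.25 to 4.37 on the HCD+Gl-1 arrays, 4.34 to 4.43 on the HCD+Gl-2 arrays and 4.41 to 4.49 on the HCD+Sim arrays, so that HCD without an additive held the highest kidney values. The 4 single-copy Y genes had a median of 0.08 with 0 passing, at a mean level that was bright. 3 vomeronasal receptor genes on chromosome 7 also rose, *Vmn1r125* by 0.56, *Vmn1r121* by 0.55 and *Vmn1r104* by 0.37, while the median of all 146 measured Vmn1r genes was -0.01. Near-identical copies share probes, and the part of cross-hybridization or of the batch adjustment in these values was not tested.

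The kidney response was set against those of liver and brain, which came from the same diet groups on other arrays. The difference between the kidney and liver responses was called for 33 genes (0.149% of those tested), and that between kidney and brain for 27 (0.122%). Of the 9 genes called in kidney, 4 were among the 33 and 6 among the 27. Those 9 were chosen for their kidney response, which is part of each difference, so these counts are no separate support. Of all 22080 genes, 54 were called in liver, and 0 of the 9 were among them. Sets this small would rarely share a gene in any case. *Cyp24a1* had a log2 fold change of -0.07 in liver and 0.19 in brain, and its kidney response differed from both by -0.80 (limma adjusted p 0.00489) and -1.05 (9.23e-05). *Srd5a2* was at -0.12 in liver, a difference of 0.89 (limma adjusted p 0.00272), and at 0.15 in brain, a difference of 0.62 that was not called (adjusted p 0.154).

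*Odc1* was at -0.24 in liver, from which its kidney response differed by 0.72 (limma adjusted p 0.00826). *Angptl4* differed from brain by -0.90 (limma adjusted p 0.0225), which did not pass without Brain HCD A or B, Kidney Control A or B or Kidney HCD A or B (adjusted p up to 0.153), but from liver, where it was at -0.22, by -0.54 with an adjusted p of 0.36. For *Lipo1*, *Polr3e*, *Ucp2* and *Acaa2* neither difference passed the test. As a list, PPAR alpha targets had a median of -0.13 in both kidney and liver and of -0.03 in brain, and the androgen-responsive genes one of 0.14 in kidney, 0.01 in liver and 0.07 in brain. Among PPAR alpha targets chosen after their values were seen, *Acaa1b* was at 0.28 in liver and 0.51 in brain. Its kidney response differed by -0.72 (limma adjusted p 0.0334) and -0.95 (0.00171). *Pdk4* and *Cyp4a14* were lower in liver too, at -0.78 and -1.45, and their kidney responses passed no test of difference.

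The dim probe sets differed mostly from brain, where many were lower in HCD. Dim refers to the kidney arrays, and *Snord115* and *Gm26230* were bright in brain. The 12 Y probe sets had a median of -0.37 in brain and -0.05 in liver. The brain value rested in part on Brain Control C, without which it was -0.18, and the liver value was -0.00 without Liver HCD B. *Srsy* was at -0.46 in brain, a difference of 1.11 (limma adjusted p 9.23e-05), and *Gm10921* at -0.46, a difference of 1.23 (2.22e-05). Without Brain Control C the brain values were -0.31 and -0.33, and both differences passed, with limma adjusted p of 0.000368 and 0.000154. When the multicopy symbols were left out before the fit, the count for kidney against brain was 10 in place of 27.

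**Figure D4:**
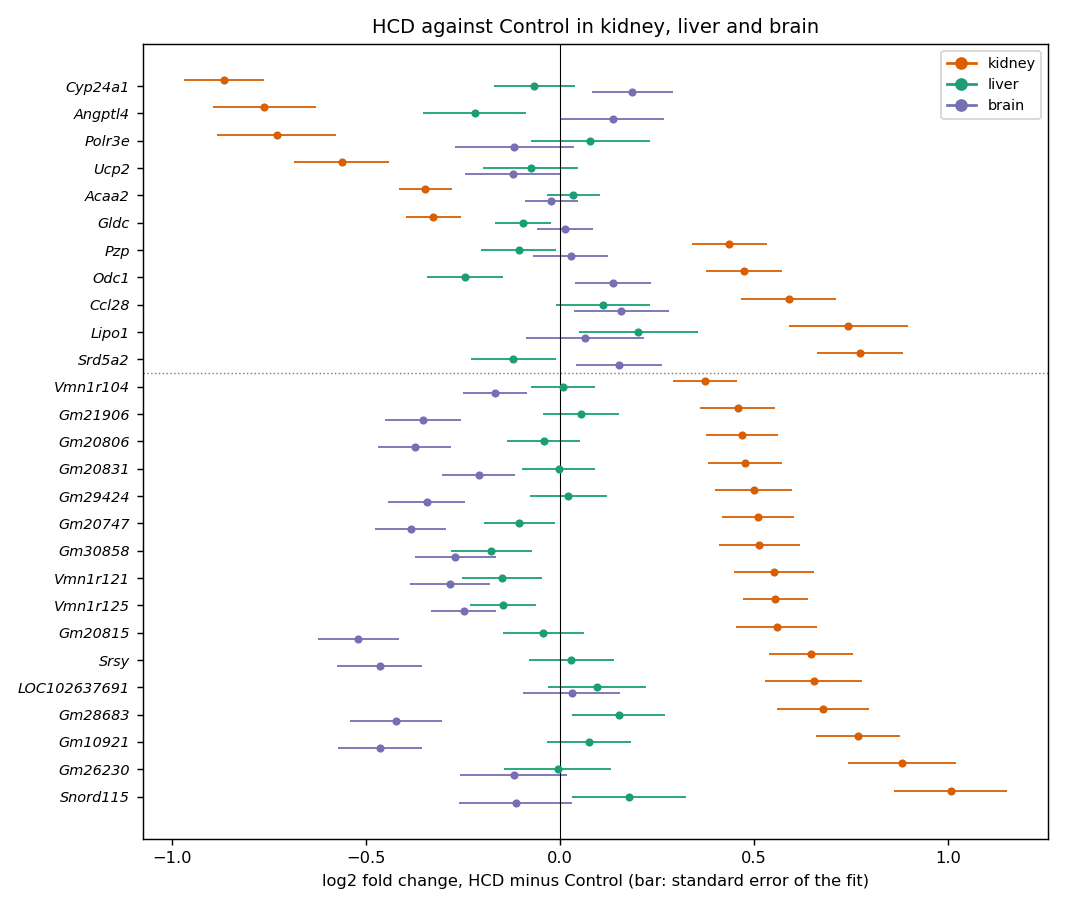
Log2 fold change of HCD minus Control (x axis) in kidney, liver and brain for the genes at an adjusted p of at most 0.05 in kidney, with the standard error of the fit as bars. Genes outside the multicopy families are above the dotted line and dim probe sets with *Srsy* below it. Kidney points lie away from 0, as the choice of genes fixes, and in brain most dim probe sets lie below 0.

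The called genes were followed in the kidneys of mice given HCD with an additive, each compared with the same Control arrays. Those Control arrays also served to choose the genes, so a change in the same direction as in HCD is no independent support. Called genes numbered 2 in HCD+Gl-1 (0.00906%), 48 in HCD+Gl-2 (0.217%) and 7 in HCD+Sim (0.0317%). *Cyp24a1* had a mean of 11.02 in HCD+Gl-1, 10.10 in HCD+Gl-2 and 10.55 in HCD+Sim, beside 9.69 in HCD and 10.55 in Control, and its log2 fold changes against Control were 0.47, -0.45 and -0.01 (limma adjusted p 0.0874, 0.0202 and 0.999). *Srd5a2* had means of 9.38, 9.22 and 10.15, and its value of 0.85 in HCD+Sim was called (limma adjusted p 2.07e-05).

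*Lipo1* had means of 9.10, 9.08 and 9.59 in the same order, with 0.67 in HCD+Sim (limma adjusted p 0.0691). *Angptl4* was at 9.24, 8.91 and 9.01, between the HCD and Control means of 8.63 and 9.39, and none of the 3 values passed the test. *Polr3e* was at 8.75, 9.21 and 8.89, and its difference of -0.78 in HCD+Gl-1 was called (limma adjusted p 0.0168). *Ucp2* had log2 fold changes of -0.11, -0.48 and -0.61, the last 2 with limma adjusted p of 0.046 and 0.0246. The dim *Snord115* was at 3.18, 3.32 and 3.49, at or below its Control mean of 3.61.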

How the data were processed

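RNA of kidney, liver and brain was hybridized to Affymetrix Mouse Gene ST v1.0 arrays. The authors corrected the signals with RMA, normalized them by quantiles with oligo, attenuated a batch effect (ComBat) and represented a gene by its most variable probe set (interquartile range), and the deposited values are log2 expression. The batches are not named in the methods, and a batch adjustment can move values of groups that it does not balance. Groups and pools came from the labels. The descriptions of some samples name another tissue than their tissue field, which was used and checked with markers.

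A limma 3.58.1 model (R 4.3.3) with 15 group means was fitted to 45 arrays (residual degrees of freedom 30, prior 7.34), with Benjamini-Hochberg adjustment over 22080 genes. The fit was tested on simulated data with independent arrays, which do not cover the RNA that pool C shares with pools A and B. The number of arrays limits the precision. Two-sided exact permutation of 3 against 3 arrays cannot give a p under 0.1. Gene lists were described by counts and medians, with no test.

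Genes named are those called, those at an adjusted p of at most 0.05 (12 largest each way outside multicopy symbols), 3 on each side of the fold change threshold, and for each list the members that passed and the 3 with the smallest p. The text marks genes added later. Members and lists were chosen with earlier results of these data known. 13 genes with names turned into dates were tested and not named, and some genes that passed are not reported here, though they stay in counts, list medians and unlabelled points. Alternatives were fits on fewer arrays, without pool C, with a block for the letter of the pool, without dim genes, with quantiles equalized inside each tissue, trend and robust moderation, other fold change thresholds, multicopy symbols left out (added later) and each array left out. Figures used matplotlib 3.10.9 in Python 3.11.15.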

Additional observations from a re-analysis of the deposited data

Results flagged for a closer look

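For several genes the kidney response to HCD differed from that of another tissue by a test of the difference itself in limma with Benjamini-Hochberg adjustment. These genes were chosen for their kidney response, which is part of each difference. *Cyp24a1* differed by -0.80 from liver and by -1.05 from brain, *Angptl4* by -0.90 from brain, *Srd5a2* by 0.89 from liver and *Odc1* by 0.72 from liver. Dim refers to kidney, where *Snord115* and *Gm26230* had Control means of 3.61 and 3.63, against 12.39 and 12.38 in brain. Among the dim probe sets, *Gm10921* differed by 0.69 from liver and 1.23 from brain, *Gm26230* by 0.89 and 1.00, *Snord115* by 1.12 from brain and *Srsy* by 1.11 from brain. The adjusted p of these differences lay between 2.22e-05 and 0.0281. Over fits that each dropped a single array, the differences of *Cyp24a1*, *Srd5a2*, *Odc1*, *Snord115* and *Srsy* and that of *Gm10921* from brain passed each time. Those of *Gm10921* and *Gm26230* from liver each had an adjusted p of up to 0.114 and over 0.05 without 8 of the 12 arrays. That of *Gm26230* from brain had one of 0.0665 without Brain HCD A and 0.0586 without Kidney Control C, and that of *Angptl4* one of up to 0.153. Groups of 3 arrays are too small for a test of single outlying arrays.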

How the results depend on the processing

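With 9 genes called between kidney HCD and Control, the count was 29 without a fold change threshold, 20 at a threshold of 0.5 and 5 with the multicopy symbols left out (added after the data were seen). It was 8 to 9 with each array left out, 7 in the fit on the 15 kidney arrays alone, 6 of them among the 9, and 13 with pools A and B only. The pool letters name different mice in each diet and do not pair them. Deviations from the group mean correlated at 0.05, 0.20 and -0.02 for pools A, B and C, and with the replicate block 11 genes were called, all 9 among them, while *Ucp2* had an adjusted p of 0.0521 and *Psca*, *Mgll* and *Gm15441* passed at 0.0195, 0.0288 and 0.0451. For kidney against liver, 33 genes became 85 with pools A and B only, 58 without a threshold and 55 at 0.5, with 22 to 59 over the arrays left out, the highest without Liver Control C, and 40 with the block. For kidney against brain, 27 became 15 with a fit on the compared arrays, 217 with pools A and B only, 7 with dim genes left out and 10 without multicopy symbols, with 22 to 147 over the arrays left out, the highest without Brain Control C, and 27 with the block. The cause of these shifts was not tested, other than fewer genes or samples where a setting removes them. No called value changed sign under the alternatives run. Of 1194 values of named genes under the alternatives, 1089 kept their side of the threshold, 75 lost it and 30 gained it. Precision is limited by 3 arrays from 2 separate pools per group, and dim probe sets lie close to the lowest signals in kidney.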
